A study of Drosophila melanogaster with 18 samples.

Results

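Serotonin is made, taken back up and sensed in the fly nervous system by a small set of proteins, and the genes for 7 of them are described here in single fly heads after appetitive conditioning. They were chosen by name, but with earlier results of these data known: Trhn, SerT, 5-HT1A, 5-HT1B, 5-HT2A, 5-HT2B and 5-HT7. The same holds for the lists of related and marker genes used below. The deposited table held 17559 genes. All 7 serotonin genes were found in it by their gene identifier. Poly-A RNA had been sequenced from 18 single heads of Drosophila melanogaster in 3 groups of 6. The flies are described as female in the methods. Starved flies had been exposed to an odor alone (Odor, labelled naive and without sugar), or trained with the odor together with sorbose, a sweet sugar without food value (Sorbose), or together with sucrose (Sucrose). Heads of trained flies were taken 4 h after the end of training. No collection time was given by the labels for the Odor group, so training, sugar and time of collection cannot be told apart in a comparison with it. The labels named no strain, genotype or age, and all 3 groups shared starvation and exposure to the odor.

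Serotonin is formed from tryptophan by a hydroxylase, which needs the pterin cofactor tetrahydrobiopterin, followed by a decarboxylase. It is loaded into vesicles, released, and returned to the neuron by a plasma membrane transporter. In flies it acts through receptors that are all coupled to G proteins: the type 1 receptors lower cyclic AMP, the type 2 receptors act through Gq and calcium, and 5-HT7 raises cyclic AMP. In the fly brain serotonin is known for parts in feeding, sleep, olfactory processing and memory. The enzyme and the transporter mark the few neurons that make the amine, whereas the receptors are found in many other neurons.

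Values were RPKM, reads per kilobase of gene and M (1000000) mapped reads. The effective library sizes recovered from the table were between 45.8 and 77.2 M reads, so that a single read on 1 kb of exon stood for 0.0129 to 0.0219 RPKM, and between 10175 and 10317 genes reached 1 RPKM in a head. Among 11062 genes with a mean of at least 0.5 RPKM, 27.5% passed an adjusted p of 0.05 between Sucrose and Odor in limma (Benjamini-Hochberg), with 13.1% higher and 14.4% lower. Between Sorbose and Odor 24.4% passed, 12.2% in each direction. Between Sucrose and Sorbose 1 gene passed, or 0.00904% of those tested, which was lower in Sucrose, while 9.96% had an unadjusted p under 0.05. Odor replicates 1 and 6 stood farthest out on the first principal component, with scores of 54.2 and 50.5, and results that rest on them are given with and without these flies. Markers of neurons (elav, nSyb, Syt1, brp and Syx1A) were present in every head, with summed levels between 487 and 615 RPKM, and none of the 5 passed the test in any comparison.

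The 7 genes lay on 3 chromosome arms and differed widely in extent (dm6 coordinates, with exons merged over the annotated transcripts). Trhn, the neuronal tryptophan hydroxylase, was the most compact, at chromosome 3L, 1190384 to 1193173 on the minus strand, with 7 exon blocks in 2.79 kb. SerT, the serotonin transporter, lay at 2R, 24404595 to 24411074 (minus strand, 6.48 kb). The type 1 receptor genes were close together on 2R, 5-HT1B at 19022325 to 19032642 (minus strand, 10.3 kb) and 5-HT1A at 19067155 to 19121958 (plus strand, 54.8 kb). On 3R were 5-HT2A at 4612870 to 4633304 (plus strand, 20.4 kb), 5-HT2B at 8578205 to 8629996 (plus strand, 51.8 kb) and 5-HT7 at 30968236 to 31016875 (minus strand, 48.6 kb). Only Trhn shared exonic bases with another gene. Its overlap with CG13912 on the opposite strand was 89 bp, 4.08% of its exons. The libraries were non-stranded, so reads in that stretch cannot be assigned to either gene.

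To compare levels between genes, RPKM values were averaged over the 18 heads. 5-HT2A was the most abundant, at 22.1 ± 1.37 RPKM (SD, n = 18). It was followed by 5-HT1A at 9.78 ± 0.721, Trhn at 6.41 ± 0.400, SerT at 5.40 ± 0.570, 5-HT7 at 4.02 ± 0.268 and 5-HT2B at 3.55 ± 0.227 RPKM. 5-HT1B stood far below, at 0.0110 RPKM. The order of the first 6 held in nearly every head. 5-HT2A was above 5-HT1A in 18 of 18 heads, 2.27-fold on average, and 5-HT1A was above Trhn in 18 of 18, 1.52-fold. The step from Trhn to SerT was smaller, 1.19-fold and seen in 17 of 18 heads (two-sided exact sign-flip permutation test within heads, adjusted over 5 steps p = 1.53e-05). SerT was above 5-HT7 in 18 of 18 heads (1.34-fold), and 5-HT7 was above 5-HT2B in 18 of 18, although only by 1.13-fold (exact permutation, adjusted p = 9.54e-06 for this step). The exception was 1 head, Sucrose replicate 1, in which SerT was at 6.63 and Trhn at 6.40 RPKM. The order was taken from these same heads, so the p-values of these steps measure only how evenly a ratio held over heads. RPKM divides by 1 fixed exon length for each gene. An error in that length would be the same in every head and does not enter the p-values, so the small steps in particular depend on it.

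**Figure D1:**
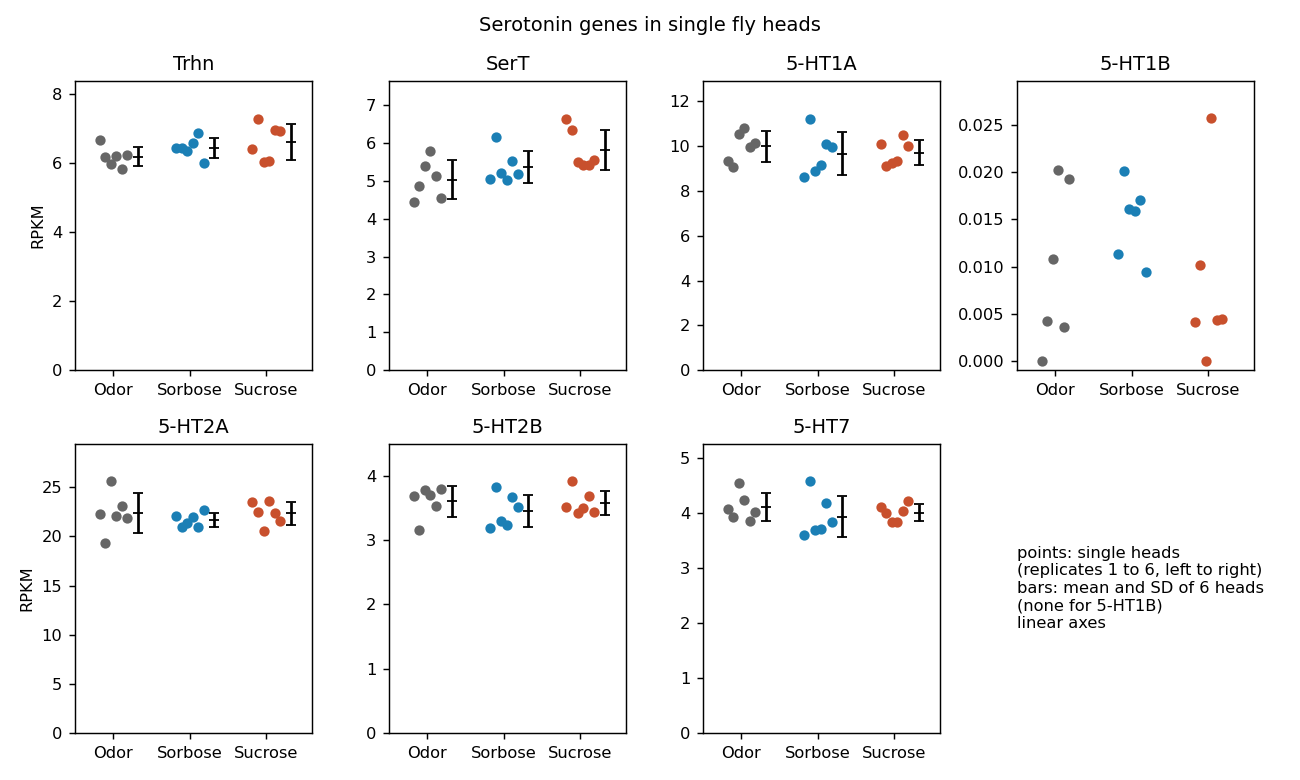
RPKM of the 7 serotonin genes (vertical axes, linear, each scaled to its gene) in the 3 groups (horizontal axes); points are single heads and bars are the mean and SD of 6 heads, left out for 5-HT1B. The groups overlap for every gene; the highest SerT values are 6.63 and 6.35 RPKM in Sucrose replicates 1 and 2, and 5-HT1B stays below 0.03 RPKM in all heads.

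Every member except 5-HT1B had at least 603 reads in each head. Trhn was represented by 603 to 1049 reads in a head, SerT by 876 to 1494, 5-HT1A by 2121 to 3933, 5-HT2A by 5084 to 9507, 5-HT2B by 957 to 1858 and 5-HT7 by 778 to 1401. At the lowest of these depths the counting error alone was 0.06 on the log2 scale for Trhn and 0.02 for 5-HT2A. It was 0.05 for 5-HT7. Beside it, the within-group SD was 0.08 for Trhn and 0.09 for 5-HT7, so counting error was a large part of these. In bulk heads a lower level may come from fewer cells with the transcript or from less transcript in each, and these cannot be told apart.

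Trhn, which carries out the first and rate-limiting step of serotonin synthesis in neurons, varied little. Its lowest, median and highest values were 5.84, 6.19 and 6.66 RPKM in Odor, 6.00, 6.43 and 6.88 in Sorbose, and 6.04, 6.66 and 7.28 in Sucrose. The 3 ranges overlapped, but Sucrose replicates 2, 5 and 6 and Sorbose replicate 5 lay above every Odor head. The difference between Sucrose and Odor was 0.09 ± 0.05 (SE) on the log2(RPKM + 0.5) scale, with a 95% interval from -0.01 to 0.19 (limma adjusted p = 0.195). For Sorbose against Odor it was 0.06 (limma adjusted p = 0.428) and for Sucrose against Sorbose 0.03 (adjusted p = 0.898 in the same fit). CG13912, with which Trhn shares some exonic bases, had log2 differences of -0.24 between Sucrose and Odor and -0.31 between Sorbose and Odor, the opposite sign, and did not pass the test in either (limma adjusted p = 0.322 and 0.205).

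SerT, which returns released serotonin to the neuron and ends its action, was the only one of the 7 to pass the test. Its lowest, median and highest values were 4.45, 4.99 and 5.79 RPKM in Odor, 5.03, 5.20 and 6.16 in Sorbose, and 5.40, 5.53 and 6.63 in Sucrose. No Sucrose head was below 5.40, whereas 5 of the 6 Odor heads were; the single exception, Odor replicate 4 at 5.79, lay above 4 of the Sucrose heads, so the groups overlapped. SerT rose in Sucrose relative to Odor by 0.19 ± 0.07 on the log2 scale, or 14.3% with a 95% interval from 3.46% to 26.3% (limma adjusted p = 0.0441). It was 1 gene of the 6 tested here, beside 27.5% of all genes tested in this comparison, and a count at or below this background is not a result about the serotonin genes. Both trained groups were compared with the same Odor heads. Relative to Odor, Sorbose differed by 0.09 (95% interval -0.06 to 0.23, limma adjusted p = 0.381), and Sucrose differed from Sorbose by 0.11 (95% interval -0.04 to 0.25, limma adjusted p = 0.657). It is therefore not shown that the response of SerT to the 2 sugars differed.

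The call of SerT was not stable. Of 30 alternative analyses 15 kept it and 15 lost it, with log2 differences between 0.12 and 0.24 and adjusted p-values between 0.0148 and 0.272, all in the same direction. It was lost in 10 of the 18 fits that left out a single head, namely without Odor replicates 1, 2, 5 or 6, Sorbose replicates 3, 5 or 6, or Sucrose replicates 1, 2 or 3. Without both Odor heads that stood apart the difference was 0.12 (limma adjusted p = 0.272). When each head was centred on its neuronal markers it was 0.24 (limma adjusted p = 0.0234).

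The ratio of SerT to Trhn RPKM was also computed in each head, since both mark the same neurons. Its lowest, median and highest values were 0.667, 0.832 and 0.934 in Odor, 0.763, 0.812 and 0.957 in Sorbose, and 0.778, 0.885 and 1.04 in Sucrose. The ranges overlapped broadly in all 3 groups.

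None of the receptor genes passed the test in any comparison. 5-HT1A, a type 1 receptor that lowers cyclic AMP, had lowest, median and highest values of 9.07, 10.1 and 10.8 RPKM in Odor, 8.64, 9.54 and 11.2 in Sorbose, and 9.09, 9.67 and 10.5 in Sucrose. Both the lowest and the highest head belonged to Sorbose. Its log2 difference was -0.04 for Sucrose against Odor (95% interval -0.17 to 0.09, limma adjusted p = 0.694), -0.05 for Sorbose against Odor (limma adjusted p = 0.603) and 0.01 for Sucrose against Sorbose (limma adjusted p = 0.973).

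The type 2 receptors act through Gq. 5-HT2A had lowest, median and highest values of 19.3, 22.2 and 25.6 RPKM in Odor, 21.0, 21.7 and 22.7 in Sorbose, and 20.5, 22.4 and 23.6 in Sucrose. The Odor heads spanned both extremes, with replicate 2 the lowest and replicate 3 the highest of all 18. The log2 difference of 5-HT2A between Sucrose and Odor was 0.00, with a 95% interval from -0.11 to 0.11 (limma adjusted p = 0.999), and for Sorbose against Odor it was -0.04 (limma adjusted p = 0.624). Its paralog 5-HT2B had lowest, median and highest values of 3.15, 3.69 and 3.80 RPKM in Odor, 3.20, 3.41 and 3.82 in Sorbose, and 3.42, 3.50 and 3.92 in Sucrose. The 3 groups again overlapped, and the log2 difference of 5-HT2B was -0.01 in Sucrose (limma adjusted p = 0.923) and -0.05 in Sorbose (limma adjusted p = 0.471), each against Odor. Between Sucrose and Sorbose the differences were 0.04 for 5-HT2A and 0.05 for 5-HT2B (limma adjusted p = 0.876 and 0.842).

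5-HT7, the receptor that raises cyclic AMP, had lowest, median and highest values of 3.86, 4.05 and 4.55 RPKM in Odor, 3.60, 3.78 and 4.58 in Sorbose, and 3.84, 4.02 and 4.22 in Sucrose. Sorbose held both extremes, as it did for 5-HT1A, and its replicate 2 was the highest head for both genes. The log2 difference of 5-HT7 was -0.03 for Sucrose against Odor (95% interval -0.14 to 0.08, limma adjusted p = 0.696), -0.06 for Sorbose against Odor (95% interval -0.17 to 0.05, limma adjusted p = 0.442) and 0.03 for Sucrose against Sorbose (limma adjusted p = 0.920).

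**Figure D2:**
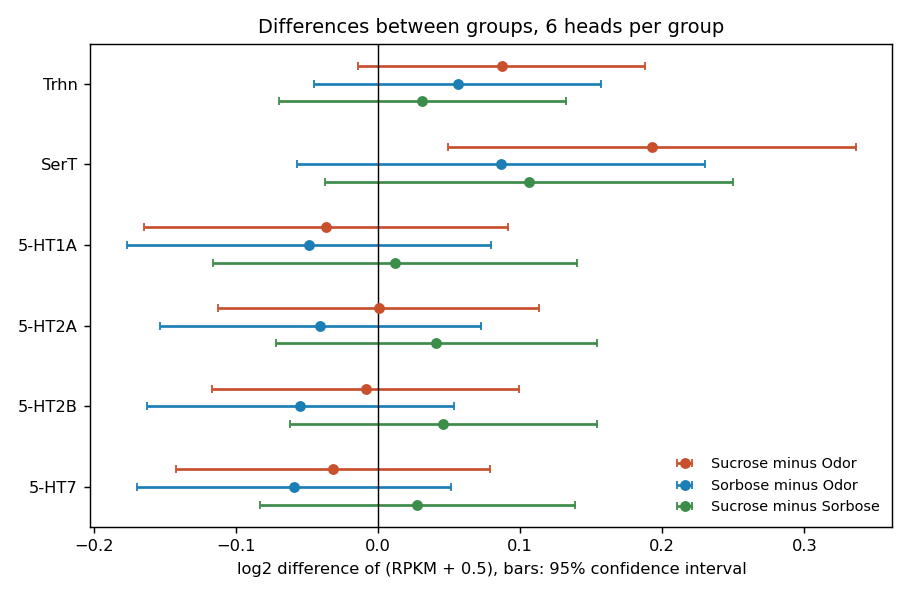
Log2 difference of (RPKM + 0.5) between groups (horizontal axis) for the 6 serotonin genes tested, with 95% confidence intervals from limma, 6 heads a group. The only interval that excludes 0 is that of SerT between Sucrose and Odor, 0.05 to 0.34; both trained groups are compared with the same Odor heads.

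In summed receptor RPKM, 5-HT2A made up 56.0% on average, between 51.6% and 58.8% in single heads. 5-HT1A made up 24.8%, 5-HT7 10.2%, 5-HT2B 8.99% and 5-HT1B 0.0276%. The group means of the 5-HT2A share were 55.8% (Odor), 56.0% (Sorbose) and 56.3% (Sucrose), which differed by less than the spread between heads.

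The absolute log2 differences of the tested members had lower medians than those of all genes, with SerT as an exception. The median of the members was 0.03 between Sucrose and Odor, beside 0.13 over all genes tested, and 0.06 between Sorbose and Odor, beside 0.13. Between Sucrose and Sorbose it was 0.04, beside 0.07. None of the 6 was called between Sorbose and Odor, beside 24.4% of all genes, or between Sucrose and Sorbose, beside 0.00904%, and in both of these comparisons 0 of 6 had an unadjusted p under 0.05, beside 37.3% and 9.96% of all genes. Between Sucrose and Odor 1 of 6 did, which was SerT, beside 39.2%. SerT lay above the median of all genes between Sucrose and Odor (0.19) and between Sucrose and Sorbose (0.11).

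The spread between heads of a group was also small. The within-group SD on the log2 scale was 0.08 for Trhn, 0.12 for SerT, 0.10 for 5-HT1A, 0.09 for 5-HT2A, 0.08 for 5-HT2B and 0.09 for 5-HT7. The median over all genes tested was 0.14, and over the 6572 genes with a mean between 3 and 30 RPKM it was 0.12. Of the genes tested, 12.3% had a smaller SD than Trhn and 38.1% a smaller SD than SerT, which varied most among the 6. By group, the median SD of the members was 0.09 (Odor), 0.10 (Sorbose) and 0.08 (Sucrose), beside 0.15, 0.12 and 0.12 over all genes tested. Because each head came from a different fly, these values and the p-values measure the spread between flies handled in 1 experiment. Counting error is included in that spread.

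5-HT1B, the second type 1 receptor, was close to undetected. It had between 0 and 6 reads in a head and 48 reads over all 18, with 0 reads in 2 heads, 1 of Odor and 1 of Sucrose. Its lowest value was 0 RPKM in Odor and Sucrose and 0.00940 in Sorbose. The highest was 0.0202 RPKM in both Odor and Sorbose and 0.0258 in Sucrose. A floor of 3 reads for a head corresponds to 0.00965 RPKM in the largest and 0.0163 RPKM in the smallest library for a gene of this length, and this floor covers counting error only. 5-HT1B lay under the minimum mean level and did not enter the test. In the fit without that minimum it was not called in any comparison. Of 13685 protein-coding genes in the table, 9.18% were at or below the mean level of 5-HT1B and 1.44% were listed at 0 in every head.

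The genes next to 5-HT1B were then read in chromosome order. The stretch of 58.21 kb from the end of tn to the start of 5-HT1A (2R, 19008945 to 19067154) held 5 genes of the table. CG43351, CG15115 and Gpxl were listed at 0 in all 18 heads, and CG15109 had 14 reads in total, a mean of 0.00859 RPKM. Like 5-HT1B, all of them were thus at or near 0. On either side the levels were higher by orders of magnitude, 22.9 RPKM for tn and 9.78 for 5-HT1A. Farther out, Topors was at 5.04, CG15117 at 5.60, botv at 6.24 and CG15118 at 51.9 RPKM, whereas CG18605 was at 0.0256. CG43351 lies within the span of 5-HT1B on the other strand without sharing exonic bases.

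To ask whether the serotonin genes varied together from head to head, the group means were subtracted and the 15 pairs of the 6 expressed genes were compared over 18 heads. Pearson's r was positive in 14 of them, and 4 pairs passed an adjusted p of 0.05 (two-sided permutation within groups, 100000 resamples, adjusted over 15 pairs). All 4 included 5-HT7 or 5-HT1A. The share of all gene pairs that would pass was not computed, so this count is not a result about the serotonin genes. With the groups not removed, 5-HT7 ranked 75th among all genes tested for 5-HT1A and 257th for 5-HT2B. The closest pair was 5-HT1A and 5-HT7, receptors with opposite effects on cyclic AMP, with r = 0.819 and Spearman's rho = 0.806 (permutation p = 0.00023, adjusted p = 0.00345). Without the 2 heads farthest from the median r was 0.686, and by group it was 0.624 for Odor, 0.957 for Sorbose and 0.656 for Sucrose.

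The other 3 pairs were less even. 5-HT2B and 5-HT7 had r = 0.672 and rho = 0.738 (permutation adjusted p = 0.0346), and 0.590 without the 2 farthest heads, but by group r was 0.556 for Odor, 0.958 for Sorbose and 0.0422 for Sucrose. 5-HT1A and 5-HT2B had r = 0.654 and rho = 0.649 (permutation adjusted p = 0.0346 for r and 0.0561 for rho), and 0.501 without 2 heads, with r = 0.722 in Odor, 0.964 in Sorbose and -0.153 in Sucrose. SerT and 5-HT7 had r = 0.603 and rho = 0.453 (permutation adjusted p = 0.0346 for r and 0.220 for rho), which became 0.446 without 2 heads and was 0.499, 0.968 and 0.299 in Odor, Sorbose and Sucrose. In all 4 pairs Sorbose gave the highest r. Sorbose replicate 2 was the highest head of its group for SerT, 5-HT1A, 5-HT2B and 5-HT7. Trhn and SerT, the pair of genes used by the same neurons, had r = 0.00377 and rho = -0.106 (permutation p = 0.989).

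Neuronal markers moved with these receptors. The mean log2 level of the 5 neuronal markers in a head had r = 0.857 and rho = 0.866 with 5-HT1A (permutation adjusted p = 0.00018 over 6 genes), r = 0.794 and rho = 0.845 with 5-HT7 (permutation adjusted p = 0.00024), and r = 0.774 and rho = 0.754 with 5-HT2B (permutation adjusted p = 0.00112). Without the 2 farthest heads r was 0.812, 0.733 and 0.610. Within the groups r lay between 0.713 and 0.950 for 5-HT1A and between 0.637 and 0.991 for 5-HT7, but for 5-HT2B it was 0.234 in Sucrose. SerT, 5-HT2A and Trhn did not pass, with r = 0.458, 0.390 and 0.282 (permutation adjusted p = 0.111, 0.148 and 0.288). For 5-HT2A r changed sign between groups, with 0.727 in Odor, -0.622 in Sorbose and 0.635 in Sucrose, and rho was 0.0464. In the same order r was 0.365, 0.963 and 0.0879 for SerT and 0.0147, 0.234 and 0.501 for Trhn. How many of all genes tested would pass with these markers was not computed. After each head was centred on the neuronal markers, 0 of the 15 pairs passed, and r was 0.455 for 5-HT1A and 5-HT7, 0.379 for 5-HT2B and 5-HT7, 0.0623 for 5-HT1A and 5-HT2B, and 0.546 for SerT and 5-HT7.

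**Figure D3:**
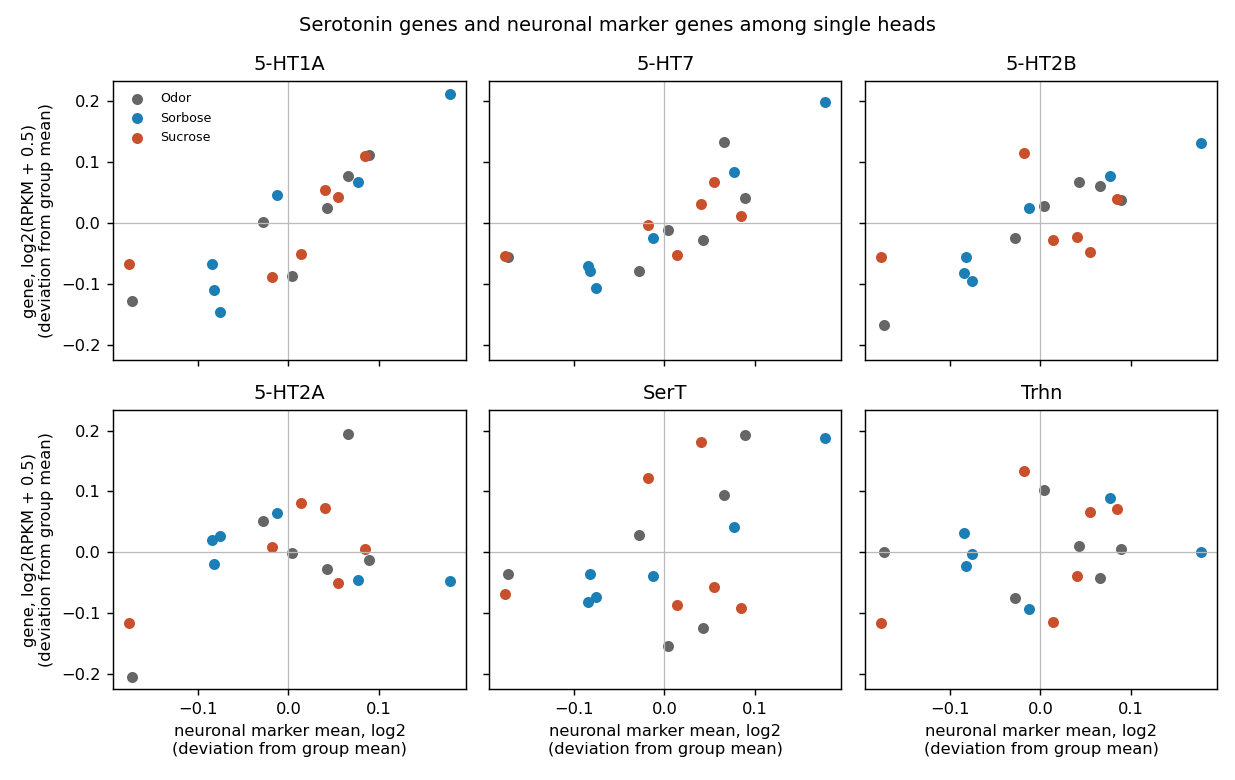
Log2(RPKM + 0.5) of 6 serotonin genes in single heads (vertical axes) against the mean log2 level of 5 neuronal markers (horizontal axes), both as deviation from the group mean, 18 heads colored by group. The points of 5-HT1A, 5-HT7 and 5-HT2B rise together with the markers (r = 0.857, 0.794 and 0.774), and for Trhn r is 0.282.

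For each member the 2 genes with the highest Pearson's r over the 18 heads were looked up among all genes tested, as a description and with the groups not removed. For 5-HT7 they were CG2269 (r = 0.930) and unc-104 (0.926), a kinesin that carries synaptic vesicle precursors. For 5-HT1A they were dpr3, an immunoglobulin superfamily gene, and Bili (both 0.913), and for 5-HT2B CG9395 (0.884) and Adar (0.873), which edits adenosines in neuronal transcripts. SerT was most like mtg (0.920) and ko (0.905). Trhn and 5-HT2A had no such close neighbours, with highest values of 0.760 for Phs and 0.737 for Dhc98D. The most similar member ranked 75th among all genes for 5-HT1A (5-HT7, r = 0.825), but only 1538th for Trhn (SerT, r = 0.261) and 2400th for SerT (5-HT7, r = 0.381). The genes compared were read in the same 18 libraries, and the values given are the highest among the genes tested.

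Among the genes that supply serotonin synthesis some differences were larger. Of 9 tested synthesis partners and cofactor genes, 2 rose and 1 fell in Sucrose relative to Odor, and 3 rose and 1 fell in Sorbose, where 27.5% and 24.4% of all genes tested were called, so that 3 called genes of 9 in Sucrose are near the background. The list had medians of 0.12 and 0.23 on the log2 scale, beside -0.0012 and 0.0067 over all genes. Ddc, the decarboxylase that makes serotonin from its precursor, and Vmat, which loads it into vesicles, each had a difference of 0.01 in Sucrose against Odor (limma adjusted p = 0.947 and 0.923).

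Hn, the phenylalanine hydroxylase, which in flies can also hydroxylate tryptophan outside neurons, was the gene of this list that changed most. Its lowest, median and highest values were 323, 413 and 569 RPKM in Odor, 154, 217 and 248 in Sorbose, and 150, 195 and 249 in Sucrose. Every Odor head was above every trained head. Hn fell by 1.09 on the log2 scale in Sucrose and by 0.99 in Sorbose relative to Odor (limma adjusted p = 0.000359 and 0.00176). Without both Odor heads that stood apart it still fell by 0.97 and 0.88 (limma adjusted p = 0.00336 and 0.0141), and it was called in all 30 alternatives of both comparisons.

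The cofactor genes that were called went the other way. Pu, the GTP cyclohydrolase that starts pterin synthesis, had lowest, median and highest values of 39.7, 56.8 and 75.7 RPKM in Odor, 69.1, 89.9 and 99.3 in Sorbose, and 65.8, 76.9 and 133 in Sucrose, and rose by 0.62 in Sucrose and 0.64 in Sorbose (limma adjusted p = 0.0209 and 0.0211). The groups overlapped. pr, the next enzyme of pterin synthesis, rose by 0.48 and 0.46 (limma adjusted p = 0.0314 and 0.0417). Sptr, sepiapterin reductase, rose by 0.69 in Sorbose (limma adjusted p = 0.0143) and had a difference of 0.45 in Sucrose (limma adjusted p = 0.0845). Without both Odor heads no cofactor gene was called: the differences in Sucrose were 0.40 for Pu and 0.28 for pr, and that of Sptr in Sorbose was 0.36 (limma adjusted p = 0.158, 0.230 and 0.0541). Of the 9 genes, Hn alone was then called in each of the 2 comparisons. The calls of Pu were also lost without Odor replicate 1 or 6 alone, and those of pr in 9 of 30 alternatives for Sucrose and 16 for Sorbose. Pterins are also eye pigments in the fly head.

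Tryptophan is also used for kynurenine and the brown eye pigments. Of 4 tested genes of this path 2 were called in Sucrose and 3 in Sorbose, beside 27.5% and 24.4% of all genes. Of these, st, which together with w forms the transporter of pigment precursors, had rises of 0.63 in Sucrose and 0.36 in Sorbose (limma adjusted p = 0.000868 and 0.0267). Its partner w fell by 0.50 and by 0.42 (limma adjusted p = 0.000370 and 0.00215). v, tryptophan oxygenase, fell by 0.84 in Sorbose (limma adjusted p = 0.0203) and had a difference of -0.48 in Sucrose (limma adjusted p = 0.161), and cn did not pass in either. The median over the 4 genes was -0.24 in Sucrose and -0.28 in Sorbose. Without both Odor heads w was called in both comparisons and st in that with Sucrose, whereas v was not called (difference in Sorbose -0.76, limma adjusted p = 0.0982). Of 30 alternatives, w kept its call in all for both sugars and st in all for Sucrose, but st lost it in 8 for Sorbose and v in 4, among them the fit without Odor replicate 1.

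**Figure D4:**
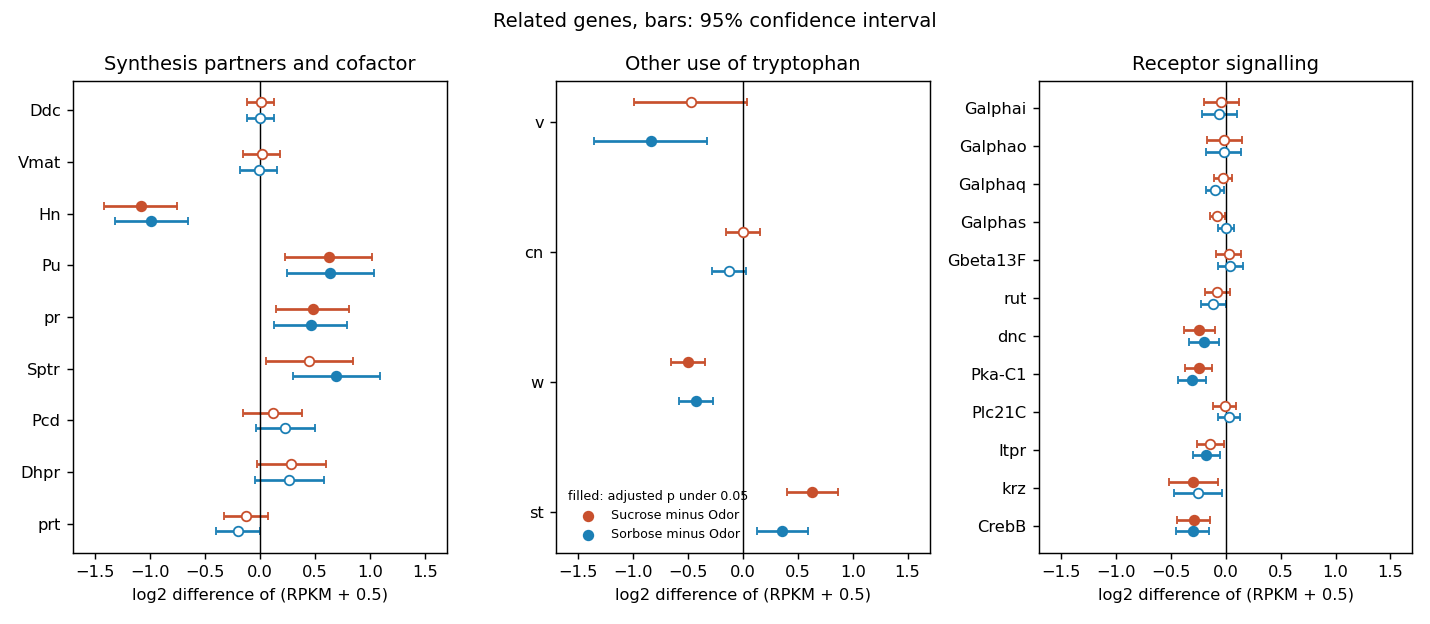
Log2 difference of (RPKM + 0.5) from Odor (horizontal axes) for genes of serotonin synthesis and its cofactor, of other tryptophan use and of receptor signalling, with 95% confidence intervals from limma, Sucrose in orange and Sorbose in blue; filled points passed an adjusted p of 0.05. Hn stands out at -1.09 and -0.99, Pu and pr lie to the right of 0, and dnc, Pka-C1 and CrebB lie to the left in both comparisons.

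Downstream of the receptors, 4 of 12 signalling genes fell in Sucrose and 4 in Sorbose relative to Odor, and none rose, beside 14.4% and 12.2% of all genes called lower and 27.5% and 24.4% called in either direction. The medians were -0.08 and -0.11. Of these, dnc, the phosphodiesterase that degrades cyclic AMP, fell by 0.24 and 0.20 (limma adjusted p = 0.0124 and 0.0382). Pka-C1, the catalytic subunit of protein kinase A, fell by 0.25 and 0.31 (limma adjusted p = 0.00627 and 0.00318), and CrebB, a transcription factor under its control, fell by 0.29 and 0.30 (limma adjusted p = 0.00711 and 0.00809). krz, the arrestin, fell by 0.30 in Sucrose (limma adjusted p = 0.0451) and Itpr, the calcium channel of internal stores, by 0.18 in Sorbose (limma adjusted p = 0.0326). The G protein genes Galphai, Galphao, Galphaq, Galphas and Gbeta13F, to which the receptors couple, did not pass in either comparison. These signalling proteins serve many receptors besides those for serotonin. Without both Odor heads Pka-C1 was the single gene called in each comparison (-0.24 and -0.30, limma adjusted p = 0.0328 and 0.0213). After centring on neuronal markers dnc and Pka-C1 were called in both, and CrebB was not (limma adjusted p = 0.0640 and 0.0642). The call of Pka-C1 in Sucrose was lost with quantile normalization (limma adjusted p = 0.0901). The calls of krz in Sucrose, dnc in Sorbose and Itpr in Sorbose were lost in 18, 13 and 12 of 30 alternatives.

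None of 13 genes for dopamine and octopamine synthesis, transport and reception passed the test in any comparison, beside 27.5%, 24.4% and 0.00904% of all genes in the 3 comparisons. Between Sucrose and Odor 2 of them, ple and DAT, had an unadjusted p under 0.05, beside 39.2% of all genes. ple, the tyrosine hydroxylase of dopamine synthesis, had a difference of 0.73 with a 95% interval from 0.04 to 1.43 (limma adjusted p = 0.108), and DAT, the dopamine transporter, of 0.24 (limma adjusted p = 0.0993). The medians over the 13 genes were -0.03 for Sucrose and -0.05 for Sorbose relative to Odor. No gene of the lists was called between Sucrose and Sorbose.

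Markers of other tissues in the head also differed in the comparisons in which SerT and the related genes were read, where 13.1% of all genes were called higher and 14.4% lower in Sucrose, and 12.2% each way in Sorbose. Of 6 tested fat body genes, 4 rose in Sucrose (apolpp, Yp1, Yp2 and fon) and 1 in Sorbose (apolpp), and their summed level ranged from 3046 to 8374 RPKM in Odor, from 2122 to 10576 in Sorbose and from 6057 to 23545 in Sucrose. Of 6 glial markers 3 rose and 1 fell in Sucrose and 1 fell in Sorbose, with sums of 746 to 907, 750 to 970 and 779 to 1055 RPKM. Of 5 blood cell markers 2 rose and 1 fell in each comparison, with sums of 34.3 to 52.0, 48.8 to 75.9 and 48.9 to 67.4 RPKM. Of 5 muscle genes Act88F rose in both, with sums of 731 to 2030, 641 to 2238 and 969 to 2199 RPKM, and none of 6 photoreceptor genes passed. Without both Odor heads that stood apart, most of these calls were lost. Of the fat body genes 1 (apolpp) was then called in Sucrose and 0 in Sorbose, of the glial and muscle genes 0 in both, and of the blood cell genes 1 in each, NimC1 lower in Sucrose and Hml higher in Sorbose. The calls of repo and moody in Sucrose were lost in 19 and 20 of 30 alternatives, and that of Pxn in Sorbose in 19. The part of these markers in the results for SerT and the related genes was not tested.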

How the data were processed

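The authors sequenced poly-A RNA of single heads with a non-stranded kit. The submitters' processing notes name CASAVA 1.8.2, TopHat2 2.0.13, edgeR 3.18.1 and the dm6 build. Another passage of the methods names an older aligner, dm3 and cuffdiff. The table holds no gene lengths, so identifiers were looked up in a dm6 annotation and exon lengths were taken from it. The deposited values are RPKM, normalized by the authors, for 17559 genes in 18 columns. Of the identifiers 17253 were found in the Ensembl annotation and 306 were not.

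Whole reads were recovered from the RPKM steps: 98.0% of values were whole within 0.02 reads, among them all values of the 7 serotonin genes. The genes with whole values in all heads numbered 16844 and held 88.3% of summed RPKM. The recovered reads gave the depth and an alternative test, and RPKM remained the unit of the main test.

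Tests were run on log2(RPKM + 0.5), which understates changes of low genes. Genes with a mean of at least 0.5 RPKM over the 18 heads were tested (11062). One model with 3 groups was fitted in limma 3.58.1 (R 4.3.3; lmFit, contrasts.fit, eBayes with trend), with Benjamini-Hochberg adjustment within each comparison and calls at 0.05. The procedure was tested on simulated data that gave each gene the same spread in all groups. In the real data the Odor heads spread more, which the simulation does not cover. Correlations and level ratios used permutation tests computed in numpy 2.4.6, permuted within groups or exact over heads. Ranks for Spearman's rho came from scipy 1.17.1.

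The members and the lists of related and marker genes were chosen with earlier results of these data known. All members are named, listed genes that were called may be named, and the 2 genes most correlated with each member are given. Listed ple and DAT were named for their unadjusted p, after their values were seen. AANAT1, KFase, para, wupA and PPO1 were not matched by symbol and were not analysed here.

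Alternatives were pseudocounts of 0.1 and 1, no filter or a mean of at least 5 RPKM, median-of-ratios scaling, quantile normalization, centring on neuronal markers, voom on recovered reads, sample quality weights, fits with only the groups compared, the replicate number as a block and leaving out each head. The fit without both Odor heads highest on the first component was added after seeing the data. No sequences of these genes were used here.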

Additional observations from a re-analysis of the deposited data

How the results depend on the processing

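Counts of the serotonin genes called between Sucrose and Odor (1, SerT) became 0 with no filter, with quantile normalization, with only the 2 groups compared and without the 2 Odor heads highest on the first component, an alternative chosen after seeing the data, and ranged from 0 to 1 when single heads were left out. In the comparisons of Sorbose with Odor and of Sucrose with Sorbose the count was 0 under every alternative run. For all genes, the count between Sucrose and Odor (3041) was 1813 after centring on neuronal markers and 1623 without the 2 Odor heads, with 2224 to 3488 when single heads were left out. Between Sorbose and Odor (2702) it was 1486 and 917 under the same changes, and 1771 to 3179 without single heads, the lowest without Odor replicate 6. Between Sucrose and Sorbose (1) it was 19 with quantile normalization, 2 with voom, 8 with only the 2 groups compared and 308 with sample quality weights, and 1 to 49 without single heads, the highest without Sorbose replicate 2. The cause was not tested. The count of correlated pairs (4) was 0 after centring on neuronal markers.

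With the replicate number as a block, 0 serotonin genes were called between Sucrose and Odor (SerT limma adjusted p = 0.0759), and 2716, 2323 and 1 of all genes in the 3 comparisons. The numbers did not pair the heads: over 18 correlations of same-numbered heads r was between -0.341 and 0.435, 7 were over 0.1, and 3 heads were closest to their own number. Apart from SerT in Sucrose, the other 17 results of single members gave 504 alternative values, of which 0 were called and 24 had the other sign, with a lowest adjusted p of 0.105 and a largest absolute log2 difference of 0.14. Depth was lowest for 5-HT1B, with at most 6 reads in a head, and counting error was also a large part of the spread of Trhn.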

Other observations

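Dixon's criterion, with a critical value of 0.625, was applied to 21 sets of 6 heads (7 measures in 3 groups). The measures were the 6 serotonin genes tested and the effective library size. No head stood apart from the others of its group, where chance gives about 1.05.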
